A study of Mus musculus with 6 samples.

Results

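Respiratory complex I, NADH:ubiquinone oxidoreductase, is the entry point of electrons into the mitochondrial respiratory chain. It takes electrons from NADH in a matrix arm, passes them along iron-sulfur clusters to ubiquinone and uses the energy to pump protons through a membrane arm. Its core subunits carry out this chemistry, accessory subunits surround and stabilise them, and assembly factors help to build the complex without remaining in it. The subunits come from nuclear genes, apart from the ND subunits, which mitochondrial DNA encodes.

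The genes described here were the rows of the deposited mouse table whose symbols begin with Nduf followed by a, b, c, s, v, ab or af and a digit, with pseudogenes marked -ps left out. This rule found 51 of 27179 genes, of which 43 were named as subunits and 8 as Ndufaf assembly factors. Of the 43, 36 have a known place in complex I and are referred to as the 36 subunits. The other 7 were Ndufa4, its paralogue Ndufa4l2 and the copies Ndufa11b, Ndufb4b, Ndufb4c, Ndufb11b and Ndufs6b. Ndufb1 was not analysed here.

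RNA was sequenced from B16F10 cells, an established mouse melanoma line labelled wild type, after 6 h with 0.01% ozonated olive oil (OZO, 3 cultures) or with 0.01% olive oil without ozone (OLO, 3 cultures). Cells of both groups grew in DMEM with serum, and both received olive oil. The labels do not say whether the cultures of a group were grown independently, and a legend of the study describes the B16F10 expression data as coming from independent experiments. The value analysed for each gene is the authors' mean log2 CPM, the reads of a gene relative to all counted reads of its library, over all 6 libraries of both groups. Levels in single libraries, and with them the spread between cultures and the response to OZO, were not analysed here.

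Genes without reads shared the lowest mean, which gave a geometric mean library size of 19641946 reads, so that 1 CPM stood for 19.6 reads. Depth of each library is unknown. In RNA from whole cultures, fewer cells with an RNA and less RNA per cell cannot be told apart. Markers of melanocytes, the cells from which melanoma arises, were high, since 7 melanocyte genes lay between 6.76 (Sox10) and 12.8 (Dct) log2 CPM. All 4 keratinocyte markers were at or below -4.77 log2 CPM, and Krt5 had no reads. Fibroblast, immune and endothelial markers were at or below 0.76 log2 CPM, with the exception of Cd68, a lysosomal protein of macrophages, at 2.45.

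All 51 genes had reads, and 45 of them averaged at least 1 CPM, as did 56.2% of the 21154 genes with reads. These 45 included the 36 subunits, Ndufa4 and the 8 assembly factors. The lowest of the 45, Ndufaf3, rested on a geometric mean of 65.5 reads per library. The 6 genes under 1 CPM were Ndufa4l2 and the 5 copies. To compare genes of different length, each mean was divided by the length of the gene's merged exons in GENCODE M21, which gave log2 CPM per kb for 50 of the 51 genes. Ndufb4b had no gene model in that annotation.

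Subunits were more abundant than assembly factors. Over the 42 subunit genes with a length, the median was 4.76 log2 CPM per kb, against 3.21 for the 8 assembly factors, a difference of 1.54 or 2.91-fold. The 36 subunits had a median of 4.97 and exceeded the assembly factors by 1.76, or 3.39-fold. Without division by length, the first of these differences was 0.78 on the log2 CPM scale, or 1.72-fold, over 43 subunit genes with Ndufb4b included. The 36 subunits then had a median of 5.42 log2 CPM and the assembly factors 4.46. None of the 8 assembly factors lay above the median of the 36 subunits, and 27 of the 36 subunits lay above Ndufaf1, the highest assembly factor on this scale. The ranges overlapped, since 5 of the 36 subunits fell below the median assembly factor. These genes are not replicates, and no test was made between the classes.

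**Figure D1:**
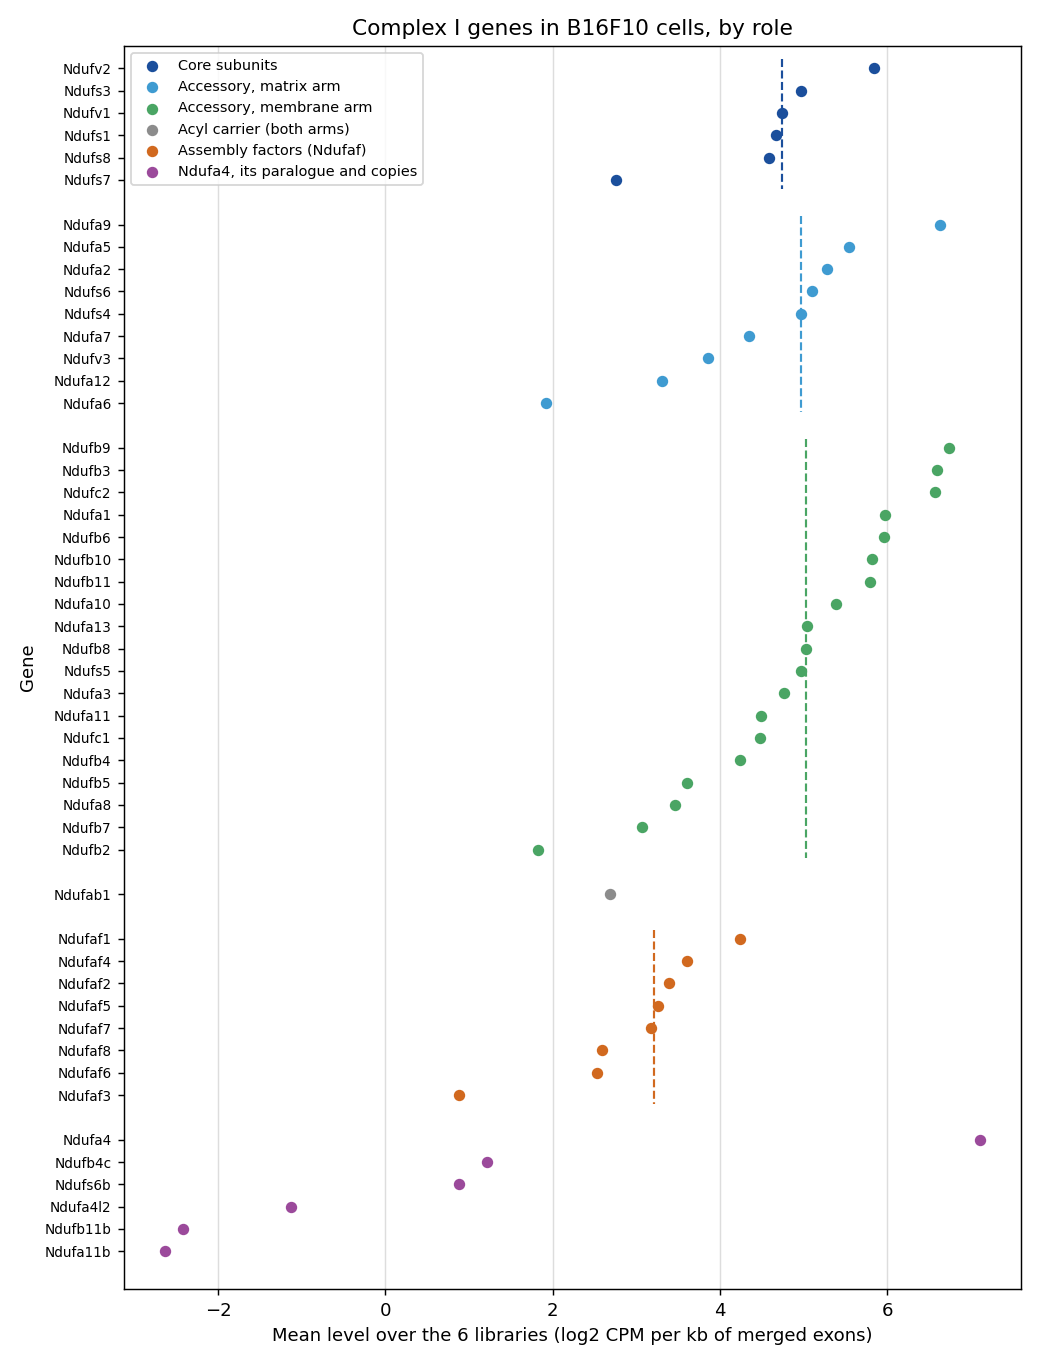
Mean level over the 6 libraries of the 50 complex I genes with a gene length, in log2 CPM per kb of merged exons (x axis), 1 point per gene except 1 that is not shown, grouped by role, with a dashed line at the median of each group other than the copies. Core and accessory subunits have medians of 4.75 to 5.03, the assembly factors 3.21, and Ndufs7, Ndufa6 and Ndufb2 sit low within their groups.

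The 7 core subunits of the matrix arm had a median of 4.75 log2 CPM per kb. Ndufv2, an iron-sulfur subunit of the NADH end, had 5.84. Ndufs3 stood at 4.97 and Ndufv1, which binds the flavin that accepts electrons from NADH, at 4.75. Ndufs1, the largest iron-sulfur subunit, had 4.68 and Ndufs8, another iron-sulfur subunit, 4.59. The place of Ndufs1, with merged exons of 8086 bases, depended on the length. It had 6.28 with the longest transcript and 7.97 with the median transcript, above Ndufv2 (6.18 and 7.24) in both. With the coding sequence it had 6.57, below Ndufv2 at 7.37. Ndufs7 carries the last iron-sulfur cluster before ubiquinone and was the lowest of the core, at 2.76 (11.6 CPM). Ndufv2 exceeded Ndufs7 by 8.48-fold per kb of merged exons, and by 6.14-fold to 9.64-fold under the other lengths, which were those of the longest transcript, of the median transcript and of the coding sequence. Among the 36 subunits and 8 assembly factors, Ndufs7 ranked between 35 and 41 of 44 under the 4 lengths. No other annotated gene shared its exons, and no near-identical copy was found.

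The 9 accessory subunits of the matrix arm had a median of 4.97 log2 CPM per kb and the 19 of the membrane arm 5.03, beside 4.75 for the core. This order rested on the length. With the longest transcript the medians were 5.35 and 5.31 for the accessory subunits and 6.03 for the core, and with the median transcript 6.07, 6.07 and 6.61. With the coding sequence they were 6.37, 6.74 and 6.44. Without division by length they were 37.3 and 41.0 CPM for the accessory subunits and 70.8 CPM for the core. Of all members outside the core and the assembly factors, the highest per kb of merged exons was Ndufa4 at 7.11. This protein was first assigned to complex I and is now known as a subunit of complex IV. Next came Ndufb9 at 6.73, Ndufa9 at 6.63, Ndufb3 at 6.59 and Ndufc2 at 6.57. With the longest transcript, Ndufb9 (7.28) was just above Ndufa4 (7.27). Without division by length, Ndufa9 (208 CPM) was above Ndufa4 (190 CPM). Ndufb9, Ndufb3 and Ndufc2 belong to the membrane arm, whereas Ndufa9 sits near the ubiquinone pocket of the matrix arm. These 4 ranked among the first 13 of 44 under all 4 lengths.

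At the low end of the 36 subunits stood Ndufb2 at 1.83 and Ndufa6, a matrix arm subunit of the LYR family, at 1.93, both named after their values were seen. The low place of Ndufb2 rested on the length used, since its merged exons span 5628 bases and its coding sequence 315. Per kb of coding sequence it had 5.99 and ranked 29 of 44. Ndufa6 remained between 38 and 42 under the 4 lengths, with 6.85 CPM. Ndufab1, the mitochondrial acyl carrier protein, sits in both arms of the complex. Its level was 2.69 with merged exons (rank 39) but 6.57 per kb of coding sequence (rank 19). For Ndufab1, stretches of up to 469 bases at up to 99.8% identity were shared with 2 annotated pseudogenes.

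Spread among the 36 subunits also depended on the length. Their interquartile range was 3.14-fold with merged exons and 1.96-fold with coding length. The whole range with merged exons was 29.9-fold, from Ndufb2 to Ndufb9. Over the 42 subunit genes, copies included, the interquartile range was 2.38 on the log2 scale, and 1.57 over those of at least 1 CPM. In the finished complex each of these proteins is present in a fixed number.

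The 8 Ndufaf assembly factors ranged over 10.2-fold. Ndufaf1, a member of the MCIA complex that builds the membrane arm, was the highest per kb of merged exons, at 4.24 log2 CPM per kb. This rank turned with the length, since Ndufaf2 led with the median transcript (5.66, against 4.44 for Ndufaf1) and Ndufaf4 with the coding sequence (6.51, against 4.84). Ndufaf4 had 3.60 and Ndufaf3, its partner in early assembly of the ubiquinone-binding module, 0.89. Ndufaf3 was the lowest of the 44 genes under all 4 lengths. Per kb, Ndufaf4 exceeded Ndufaf3 by 6.57-fold with merged exons and by 4.12-fold to 15.1-fold under the other lengths. Ndufaf3 averaged 3.36 CPM.

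Ndufaf5, an arginine hydroxylase acting on the Ndufs7 protein, had 3.26 log2 CPM per kb and its partner Ndufaf8 2.60, a 1.58-fold difference that turned to 0.85-fold per kb of coding sequence. Ndufaf7, an arginine methyltransferase, stood at 3.17. Ndufs7, the target of Ndufaf5, was at 0.71-fold of that enzyme per kb of merged exons and at 1.07-fold with the median transcript length. Ndufaf6, needed for the early membrane part, had 2.53.

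Ndufaf2 is a paralogue of the subunit Ndufa12, and is an assembly factor of a late intermediate of the complex, in which Ndufa12 later takes its place. Per kb of merged exons Ndufaf2 had 3.39 and Ndufa12 3.31, so that Ndufa12 was at 0.951-fold of Ndufaf2. This nearness rested on the length, since the ratio was 0.369-fold with the median transcript and 0.565-fold with the coding sequence. Exons of the annotated gene B230220B15Rik covered 65.6% of the merged exons of Ndufaf2, the largest such share among the 50 genes, and Ndufa12 shared 402 bases at 99.5% identity with the pseudogene Gm15920. How these affected the counts was not tested.

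Of 10 listed assembly factors with other names, 9 were measured (Coa1 was not analysed here), with a median of 2.52 log2 CPM per kb of merged exons, beside 3.21 for the Ndufaf genes, and a range from 0.75 to 4.28. The order of these medians rested on the length, since they were nearly equal with the longest transcript, 3.92 and 4.10 with the median transcript, and 4.73 and 4.44 with the coding sequence. The partners of Ndufaf1 in the MCIA complex were Timmdc1 at 4.28, Ecsit at 3.15, Acad9 at 2.52, Tmem186 at 2.35 and Tmem126b at 2.25. Dmac1, which acts on the distal membrane arm, had 3.63, and Foxred1 had 3.37. Nubpl, which delivers iron-sulfur clusters to the complex, was at 1.53 and Dmac2 at 0.75. With these 9 genes added to the 8, the subunits stood higher by 1.61, or 3.04-fold.

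Mitochondrial DNA encodes the 7 core subunits of the membrane arm. In the table they appear as ND1 to ND6 and ND4L and were matched by their gene identifiers. ND1, ND2, ND4, ND5 and ND6 had 10.4 to 12.1 log2 CPM per kb, above every nuclear member. ND6 (10.8) shares 2.70% of its bases with ND5 (10.9), and the counting setting for strand is unknown. ND1 was the highest, at 4331 CPM. ND4L (5.59) and ND3 (4.30) were lower on the same scale, and rested on 14.3 and 6.85 CPM. Their genes are also the shortest of the 7, at 297 and 348 bases. ND4L shares 2.36% of its bases with ND4. How length and overlap affected these counts was not tested, so the values may not measure the amount of these RNAs.

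**Figure D2:**
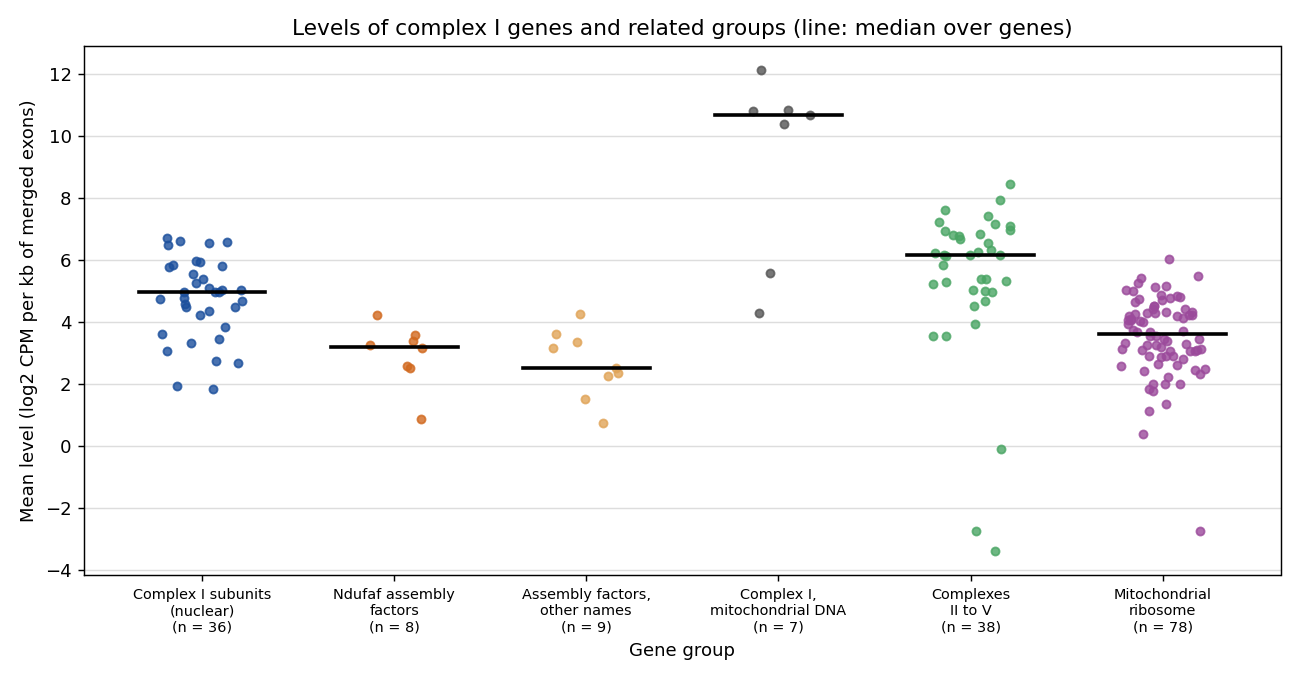
Mean level of each gene in log2 CPM per kb of merged exons (y axis) for 6 gene groups (x axis), 1 point per gene with a black line at the group's median. The 36 nuclear subunits (median 4.97) lie between complexes II to V (6.16) and the mitochondrial ribosome (3.62), and 5 of the 7 genes of mitochondrial DNA stand above all others of complex I.

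Next, the subunits were set beside other genes of mitochondrial energy production. The 38 nuclear genes listed for complexes II to V had a median of 6.16 log2 CPM per kb, so that complex I subunits were lower, by 1.40 on the log2 scale for the 42 genes and by 1.19 for the 36. The complex I genes had 0.378-fold and 0.439-fold of that median. By complex, the medians were 5.57 for complex II, 6.14 for complex III, 6.46 for complex IV and 5.41 for ATP synthase. In that list Sdhd (0.19 CPM), Uqcr11 (0.061 CPM) and Cox7a2 (0.89 CPM) were under 1 CPM. Uqcr11 shared up to 171 bases at up to 98.8% identity with 2 pseudogenes. No near-identical copy was found for Sdhd or Cox7a2. Whether these values came from little RNA or from the counting of reads was not tested. The 78 mitochondrial ribosomal protein genes had a median of 3.62, which the 42 complex I genes exceeded by 1.14 and the 36 by 1.35. Without division by length, the first of these differences was 0.14 on the log2 CPM scale, over 43 complex I genes with Ndufb4b included. The 36 subunits then had a median of 5.42 log2 CPM and the ribosomal protein genes 5.10.

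**Figure D3:**
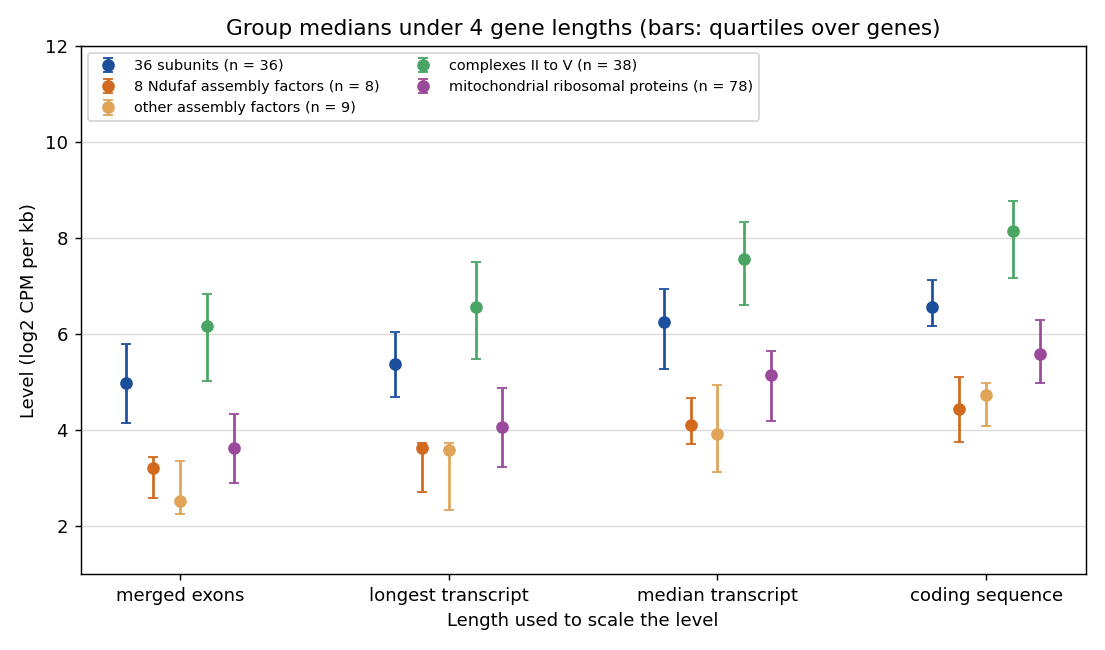
Median level (points, log2 CPM per kb, y axis) and quartiles over genes (bars) of 5 gene groups when scaled by merged exons, longest transcript, median transcript or coding sequence (x axis). Under each of the 4 lengths the 36 subunits lie below complexes II to V and above the mitochondrial ribosomal proteins and both groups of assembly factors.

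Among all genes with reads and a length, the 36 subunits lay between percentiles 60.5 and 98.5 per kb, with a median of 92.5. The 8 assembly factors lay between 53.4 and 86.4, with a median of 75.4. Without division by length, the ranges were 55.6 to 95.4 and 51.2 to 77.7 among all genes with reads. The medians were then 76.3 and 67.3.

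The copies and paralogues were low. Ndufa4l2, a paralogue of Ndufa4 known as a target of hypoxia-inducible factor, had 0.50 CPM (9.32 reads per library), and Ndufa4 exceeded it by 302-fold per kb of merged exons and by 307-fold to 759-fold under the other lengths. Ndufb4c and Ndufb4b had 0.91 CPM each. Per kb, Ndufb4 exceeded Ndufb4c by 8.14-fold with merged exons and by 16.7-fold with the median transcript length. Ndufs6b had 0.64 CPM, and Ndufs6 exceeded it by 18.7-fold per kb of merged exons and by 30.5-fold with the median transcript length. In the table, Ndufb4c carries the Ensembl identifier of Ndufb4, and its model was found by its symbol. Ndufb11b (0.19 CPM, 3.28 reads) and Ndufa11b (0.068 CPM, 0.84 reads) had the fewest reads of the 51 genes. GENCODE M21 types Ndufa11b, Ndufb4c and Ndufs6b as processed pseudogenes.

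Sequence shared with copies limits some of these values. Of the 50 genes with a model, 12 matched another annotated gene elsewhere over at least 150 bases at 95% identity or more. The 390 bases of Ndufb4c were identical to Ndufb4, and Ndufs6b matched Ndufs6 over 348 bases at 97.5%, so their reads can be uncertain. Among core subunits, Ndufs3 was the only one with such a match, 792 bases at 98.6% identity with the pseudogene Gm12251. The 8 of the 36 subunits with a match had a median of 4.97 log2 CPM per kb and the 28 without 4.87. Exons of other genes overlapped 19 of the 50 genes. The larger shares, after that of Ndufaf2, were 39.0% in Ndufb6 (Smim27), 30.0% in Ndufa13 (Tssk6) and 19.5% in Ndufb9 (Gm49356).

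The 50 genes lay on 17 chromosomes, as placed by GENCODE M21 on GRCm38, the same build as mm10. Ndufa1 and Ndufb11 are on chromosome X. Some share their locus with a mitochondrial ribosomal protein gene, as Ndufb5 overlaps exons of Mrpl47 and Ndufs6 those of Mrpl36. Ndufs7 lies on chromosome 10 from 80249121 to 80256794 on the plus strand. Ndufaf3 lies on chromosome 9 from 108565537 to 108567434 on the minus strand, where 2.64% of its exons overlap Impdh2.

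Promoter windows of RefSeq on GRCm38.p6, from 250 bases before to 50 after a transcription start, were found for 39 of the 44 subunits and assembly factors, as 41 windows. In them 6 motifs were searched on both strands. The motif of YY1, a factor of housekeeping promoters, in the form AAGATGGCG was present in 6 windows (14.6%), against 1.40% of all 32851 windows and 3.12% of those of genes with at least 1 CPM. The core GCATGCGC of the motif of NRF1, a regulator of nuclear genes for mitochondria, was in 5 windows (12.2%), against 2.71% and 5.55%. The ETS motif CCGGAAG was in 14.6% (8.86% and 18.1%) and the hypoxia response core ACGTG in 19.5% (19.6% and 25.9%). CCAAT was in 34.1% (37.4% and 38.1%) and TATAAA in 12.2% (13.6% and 6.90%). These are matches of letters, which were not tested, and binding was not measured.

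The YY1 and NRF1 matches are shown because their shares were above both of the shares given beside them, whereas that of TATAAA was above the share in windows of genes with at least 1 CPM but below that in all windows. For each window 1 match is shown. Overlapping matches on the other strand, in Ndufa11, Ndufaf4 and Ndufaf5, and a separate NRF1 match of Ndufaf4 that begins at base 2, counting the transcription start as 1, are not printed. The motif is in capitals with up to 10 flanking bases, on the strand of the gene. All 6 YY1 matches began between bases 11 and 36 in the same count, and in 5 of them, all but Ndufaf8, the ATG within the motif was an annotated start codon.
Ndufa9 (YY1, chr6:126849097-126849125, minus strand): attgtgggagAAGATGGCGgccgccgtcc
Ndufc1 (YY1, chr3:51408915-51408943, minus strand): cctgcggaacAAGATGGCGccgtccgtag
Ndufs4 (YY1, chr13:114388045-114388069, minus strand): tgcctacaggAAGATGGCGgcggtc
Ndufs6 (YY1, chr13:73328433-73328459, minus strand): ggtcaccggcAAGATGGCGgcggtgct
Ndufs7 (YY1, chr10:80249463-80249491, plus strand): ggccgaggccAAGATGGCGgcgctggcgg
Ndufaf8 (YY1, chr11:120098934-120098962, plus strand): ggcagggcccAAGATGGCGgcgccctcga
Ndufa6 (NRF1, chr15:82354357-82354384, minus strand): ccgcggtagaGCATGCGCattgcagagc
Ndufa8 (NRF1, chr2:36049329-36049356, minus strand): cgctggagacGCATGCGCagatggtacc
Ndufa11 (NRF1, chr17:56717694-56717721, plus strand): tgcactgcgcGCATGCGCgcacgccttg
Ndufaf4 (NRF1, chr4:24897962-24897989, plus strand): agatgtctgcGCATGCGCctgtgcggaa
Ndufaf5 (NRF1, chr2:140170654-140170681, plus strand): tcccgttggcGCATGCGCctaatagaaa

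Genes with these motifs were found at high and at low levels. The 6 genes with the YY1 match included Ndufa9 at 6.63 log2 CPM per kb, Ndufs6 at 5.10, Ndufs4 at 4.97 and Ndufc1 at 4.48, but also Ndufs7 at 2.76 and Ndufaf8 at 2.60. Of the genes with the NRF1 match, Ndufa11 had 4.49, Ndufaf4 3.60, Ndufa8 3.46, Ndufaf5 3.26 and Ndufa6 1.93 on the same scale.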

How the data were processed

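Total RNA of B16F10 cells (3 OLO and 3 OZO libraries) was sequenced as paired reads. According to the methods, the authors aligned reads to mm10 with HISAT2 2.1.0 and used featureCounts 2.1.1 and limma-voom 3.58.1 for differential expression. The voom method adds 0.5 reads to each count, which was assumed in reading the mean. Strand setting, treatment of reads with several matches and filters are not given in the sources used here. The deposited table holds, per gene, the authors' comparison of OZO with OLO (log2 fold change, moderated statistic, p-values and log odds), which was not used, and the authors' mean log2 CPM over all 6 libraries, which was. The mean carries no error, so only counting depth could be judged, as a geometric mean of reads per library. Because the table holds no values of single libraries, the planned test of OZO against OLO could not be made.

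Genes were matched to GENCODE M21 (GRCm38) by Ensembl identifier, or by symbol where that identifier was absent or shared. Medians, quartiles and ranges over genes were computed with Python 3.11.15, numpy 2.4.6 and pandas 2.3.3. Near-identical stretches were searched with blastn 2.17.0 among the M21 transcripts. Recovery of library size and levels was tested on simulated counts of 27179 genes. Members, lists and classes were chosen with earlier results of these data known. Genes named were the core subunits, the Ndufaf genes, the 5 highest and 5 lowest of the other members, those under 1 CPM, paralogues and Ndufab1. The class of 36 subunits, the motifs, and the genes named for overlaps, copies or motifs were chosen after the table had been seen. Medians were recomputed under other lengths and filters. Because the counting setting for strand is unknown, reads of overlapping genes cannot be told apart. The level of 1 member entered the summaries but is not reported here.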

Additional observations from a re-analysis of the deposited data

How the results depend on the processing

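No paired analysis was possible because each gene has a single mean over all libraries. For the same reason no library could be left out, and the planned fits of OZO against OLO (replicate block, another normalization, another filter) were not run. With no replicate error, a value was taken as moved when it changed by over 1.5-fold. The difference between subunits and assembly factors, 1.54 on the log2 scale, stayed between 1.55 and 2.13 under the alternatives scaled by length and was 0.78 without length. The interquartile range of the subunits, 2.38 on the log2 scale, was 1.24 with coding length, 1.57 with genes of at least 1 CPM, 1.75 without length and 1.65 over the 36 subunits. The difference to mitochondrial ribosomal proteins, 1.14, was 0.14 without length, and that to complexes II to V, -1.40, ran from -1.57 to -1.19. Division by no length and the limit to 36 subunits were chosen after seeing the data. None of these differences between group medians changed its sign under the alternatives run, whereas the ratios of Ndufaf5 to Ndufaf8 and of Ndufs7 to Ndufaf5 turned with the length, as given above. Depth limits the 6 genes under 1 CPM.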
